A study of Mus musculus with 6 samples.

Results

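The 10 genes described here encode checkpoint ligands and costimulatory molecules and were followed in tumor-associated macrophages (TAMs). They were picked by name, as the rows of the deposited count table that carry their symbols. The 10 symbols matched 11 of the 39179 rows, because Cd47 stands in the table under a second gene identifier whose count was 0 in every library. Of these members 8, 4 in each class, were among the 8793 genes with enough reads for a test. The inhibitory class held Cd274, Pdcd1lg2, Lgals9, Cd47 and Cd200r1, and the costimulatory class held Cd80, Cd86, Cd40, Icosl and Tnfsf9.

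The macrophages came from subcutaneous tumors of a Braf V600E melanoma line in C57BL/6 hosts that were 8 weeks old. Tumor cells were either wildtype (Ptgs-competent) or lacked Ptgs1 and Ptgs2, the genes of cyclooxygenases COX-1 and COX-2, after CRISPR/Cas9 editing (Ptgs-deficient), and the hosts were not edited. Each of the 3 libraries per group was made from a pool of tumors, and the sort kept live leukocytes (CD45+) that were F4/80+ and CD11b+ with little or no Ly6C, and left out Ly6G+ and NK1.1+ cells. Libraries were made from 800 pg of RNA with QuantSeq FWD, a chemistry that sequences transcript 3′ ends, so that a count does not scale with transcript length and PCR copies of 1 molecule are counted as separate reads.

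A T cell reads an antigen together with signals from the surface of the presenting cell. CD80 and CD86 engage CD28 to costimulate and CTLA-4 to restrain, ICOS ligand and 4-1BB ligand engage ICOS and 4-1BB, and CD40 receives the signal of CD40 ligand and licenses the presenting cell. PD-L1 and PD-L2 bind PD-1 and dampen T cells, and PD-L1 is a known target of interferon-gamma signaling in macrophages. Galectin-9 binds TIM-3 among other partners, CD47 binds SIRPα on phagocytes and restrains engulfment, and CD200R1 is an inhibitory receptor of myeloid cells that binds CD200.

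Depth ranged from 4431184 to 8760679 counts per library, with 7794 to 10714 genes detected. Values below are CPM (read counts scaled to library size, here with TMM factors), given as mean ± SD over 3 libraries, and each log2 fold change sets Ptgs-deficient against Ptgs-competent libraries, with its standard error from edgeR's quasi-likelihood fit. A count of 0 allows up to 3 counts, or 0.357 to 0.647 CPM depending on the library, which covers counting error only. Of the 12 macrophage markers all were detected, and their summed level was 8187 CPM in Ptgs-competent replicate 3 against 21633 and 22963 CPM in the other Ptgs-competent libraries and 27560 to 33476 CPM in Ptgs-deficient TAMs. That library held 123 counts of Cd68, a macrophage lysosomal glycoprotein, against 2465 to 3426 in the other 5. Of the 12 markers Cd68 differed most there. Mertk had 417 counts against 490 to 706 in the other 5, before scaling for this library's lower depth. In bulk samples, fewer cells of a type and less RNA per cell cannot be told apart. Ptgs1 and Ptgs2, deleted in the tumor cells and not in the macrophages, had log2 fold changes of -1.11 ± 0.83 and -0.998 ± 1.07 in the TAMs, which does not check the labels. The p-values measure the spread between these 6 pools only.

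In these libraries Cd40 and Cd200r1 stood higher in every Ptgs-deficient library than in any Ptgs-competent one, while the B7 ligands Cd80 and Cd86, Lgals9 and Icosl overlapped between groups. Cd274 was most abundant in a pair of Ptgs-deficient libraries but was not detected in the other. None of the 8 tested members was called by edgeR's quasi-likelihood test (adjusted p at most 0.05 and a log2 fold change of at least 1.5), a rule that called 0.216% of all genes tested. None was called by edgeR's likelihood ratio test or by DESeq2 either. These called 2.74% of all genes tested and 3.83% of the 8561 genes to which DESeq2 gave an adjusted p. At an unadjusted p under 0.05, 1 member passed, Cd40, beside 8.83% of all genes. The 2 members with separate groups, both higher, compare with 11% of all genes that were separate and higher and 8.01% that were separate and lower.

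**Figure D1:**
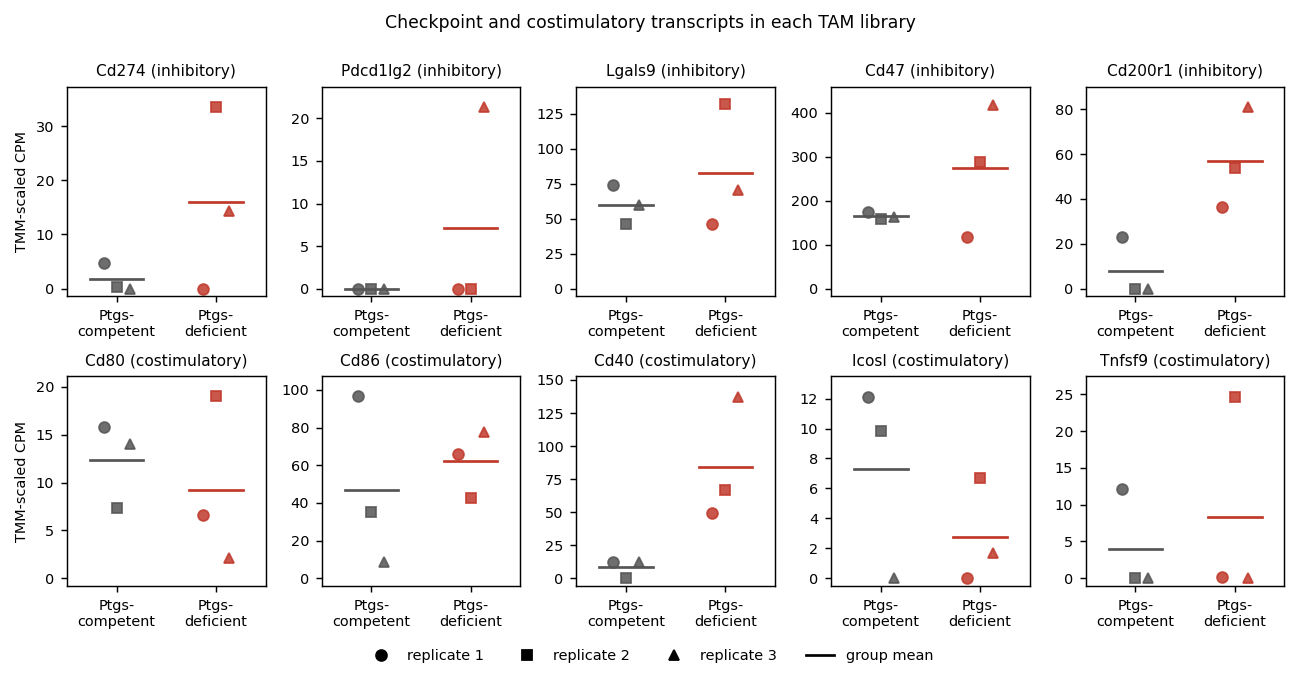
TMM-scaled CPM (vertical axes, linear and different between panels) of the 10 members in each of 3 Ptgs-competent and 3 Ptgs-deficient libraries, 1 point per library with its replicate number as the marker shape and a bar at the group mean. Cd40 and Cd200r1 separate the groups, Cd47 lies between 118 and 418 CPM, and Pdcd1lg2 was detected in 1 library.

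Cd274 (ENSMUSG00000016496, chr19:29367455-29388095, plus strand, GRCm38) encodes PD-L1. It had 30, 2 and 0 counts in Ptgs-competent replicates 1 to 3 and 0, 281 and 69 counts in Ptgs-deficient replicates 1 to 3. These are 4.78, 0.328 and 0 CPM against 0, 33.5 and 14.3 CPM. The highest values were both Ptgs-deficient, but 1 library of each group was at 0, so that the groups overlapped. The means were 1.70 ± 2.67 and 15.9 ± 16.8 CPM (n = 3 each). The log2 fold change was 3.20 ± 2.88 with a 95% interval from -3.20 to 9.61 (edgeR adjusted p = 0.9995). It was 6.40 without Ptgs-competent replicate 1 and 2.05 without Ptgs-deficient replicate 2.

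Pdcd1lg2 (ENSMUSG00000016498, chr19:29410919-29471161, plus strand), the PD-L2 gene, begins 22823 bases past the end of Cd274. It was detected in Ptgs-deficient replicate 3 alone, with 103 counts or 21.3 CPM, and had 0 counts in the other 5 libraries. It did not enter the test. A930007I19Rik lies across it on the opposite strand and had 15 to 555 counts in the 6 libraries. The strand setting of the counting is not given in the sources used here, so reads of this pair may not be separable.

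Lgals9 (ENSMUSG00000001123, chr11:78962974-78984946, minus strand), which encodes galectin-9, was at 74.1, 46.1 and 59.9 CPM in Ptgs-competent TAMs and 46.0, 131.7 and 70.6 CPM in Ptgs-deficient TAMs. Only Ptgs-deficient replicate 2 exceeded the Ptgs-competent range. The means were 60.1 ± 14.0 and 82.7 ± 44.1 CPM, with a log2 fold change of 0.46 ± 0.63 (95% interval -0.94 to 1.87, edgeR adjusted p = 0.9995). Without Ptgs-deficient replicate 2 the direction turned, to -0.044, and without Ptgs-deficient replicate 1 it was 0.79.

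The promoter windows of 3 members are printed because PD-L1 is a textbook interferon target and the count data place Cd274, its neighbor Pdcd1lg2 and Lgals9 at different levels. They are the 250 bases before the RefSeq start on the gene's own strand (RefSeq, GRCm38.p6). Capitals mark matches to GAAANNGAA, a core of interferon-stimulated elements, searched on both strands.
Cd274 (chr19:29367188-29367437, plus strand): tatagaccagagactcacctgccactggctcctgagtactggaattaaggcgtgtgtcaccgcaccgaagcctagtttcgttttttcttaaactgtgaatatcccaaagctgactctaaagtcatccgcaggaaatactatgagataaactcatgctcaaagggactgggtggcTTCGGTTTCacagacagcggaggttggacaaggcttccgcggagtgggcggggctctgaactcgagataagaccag
Lgals9 (chr11:78984925-78985174, minus strand): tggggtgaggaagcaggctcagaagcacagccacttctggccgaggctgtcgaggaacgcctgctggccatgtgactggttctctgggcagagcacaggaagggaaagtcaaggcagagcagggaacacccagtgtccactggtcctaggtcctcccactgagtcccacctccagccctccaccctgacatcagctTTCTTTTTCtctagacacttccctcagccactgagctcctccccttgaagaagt
Pdcd1lg2 (chr19:29410669-29410918, plus strand): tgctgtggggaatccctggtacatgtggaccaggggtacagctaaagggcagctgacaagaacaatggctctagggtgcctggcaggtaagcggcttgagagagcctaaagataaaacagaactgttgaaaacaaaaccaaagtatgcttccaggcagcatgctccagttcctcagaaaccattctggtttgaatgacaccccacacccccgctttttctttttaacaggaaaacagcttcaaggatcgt
RefSeq windows of 300 bases, which run 50 bases past the start, were matched for 6 of the 10 members (Cd274, Pdcd1lg2, Lgals9, Cd47, Cd80 and Icosl). The others are Cd86, Cd40, Cd200r1 and Tnfsf9. Cd274 held 1 match, TTCGGTTTC, which begins at position -76 counted from 0 at the start, and Lgals9 held 2, TTCTTTTTC at -54 and TTCTGTTTC at 16. No match lay in the windows of Pdcd1lg2, Cd47, Cd80 or Icosl. The letters GAAANNGAA occurred in 8.56% of the 32851 windows of this length. TTCNNNGAA, the interferon-gamma activated site (GAS), occurred in 8.3% of them and in no member's window. A match is a run of letters and not a measured binding site.

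Cd47 (ENSMUSG00000055447, chr16:49800533-49915010, plus strand) had the most 3′ reads of the 10 members in every library. It was at 175, 158 and 163 CPM in Ptgs-competent TAMs and 118, 287 and 418 CPM in Ptgs-deficient TAMs. The Ptgs-competent pools lay close together, and the Ptgs-deficient pools fell on both sides of them. The means were 165 ± 8.93 and 274 ± 150 CPM, with a log2 fold change of 0.73 ± 0.46 (95% interval -0.30 to 1.76, edgeR adjusted p = 0.882). Without Ptgs-deficient replicate 3 it was 0.30, and without Ptgs-deficient replicate 1 it was 1.12. Sirpa, its receptor on the macrophage itself, had 9692, 4501 and 1641 counts against 5650, 5412 and 5797, with a log2 fold change of 0.12 ± 0.49.

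Cd200r1 (ENSMUSG00000022667, chr16:44765736-44794978, plus strand) had 144, 0 and 0 counts in Ptgs-competent TAMs and 200, 452 and 391 counts in Ptgs-deficient TAMs. In CPM this was 22.95, 0 and 0 against 36.5, 53.8 and 80.9, so that the groups did not overlap. The means were 7.65 ± 13.3 and 57.1 ± 22.4 CPM. The log2 fold change was 2.89 ± 2.01 with a 95% interval from -1.59 to 7.37 (edgeR adjusted p = 0.934). Ptgs-competent replicate 1 set its size, which was 11.39 without that library (edgeR adjusted p = 0.108, against up to 0.99999 over the alternatives), where both remaining Ptgs-competent libraries were at 0 and a fitted fold change depends on the prior count. Cd200r1 has closely related neighbors of its family, and how reads with several alignments were counted is not given in the sources used here.

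Cd80 (ENSMUSG00000075122, chr16:38455561-38496335, plus strand), which encodes B7-1, was at 15.8, 7.39 and 14.0 CPM in Ptgs-competent TAMs. It was at 6.57, 19.1 and 2.07 CPM in Ptgs-deficient TAMs, which held both the highest and the 2 lowest values. The means were 12.4 ± 4.42 and 9.23 ± 8.80 CPM, with a log2 fold change of -0.42 ± 1.99 (95% interval -4.85 to 4.0, edgeR adjusted p = 0.9995). It moved to -1.52 without Ptgs-deficient replicate 2 and turned to 0.054 without Ptgs-deficient replicate 3.

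Cd86 (ENSMUSG00000022901, chr16:36603869-36666081, minus strand), which encodes B7-2, was at 96.7, 35.5 and 8.84 CPM in Ptgs-competent TAMs and 66.1, 42.6 and 77.8 CPM in Ptgs-deficient TAMs. The Ptgs-competent libraries spanned the whole Ptgs-deficient range, and the lowest value was that of replicate 3, in which the summed macrophage markers were low. The means were 47.0 ± 45.1 and 62.2 ± 17.9 CPM, with a log2 fold change of 0.40 ± 0.90 (95% interval -1.60 to 2.40, edgeR adjusted p = 0.9995). Without Ptgs-competent replicate 3 it was -0.050, and without Ptgs-competent replicate 1 it was 1.49.

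Cd40 (ENSMUSG00000017652, chr2:165055627-165072948, plus strand) had 79, 0 and 56 counts in Ptgs-competent TAMs and 269, 558 and 663 counts in Ptgs-deficient TAMs. In CPM this was 12.6, 0 and 12.1 against 49.1, 66.4 and 137. Every Ptgs-deficient library was above every Ptgs-competent one, and the smallest gap was that between Ptgs-competent replicate 1 and Ptgs-deficient replicate 1. The means were 8.22 ± 7.12 and 84.2 ± 46.7 CPM. The log2 fold change was 3.36 ± 1.46 with a 95% interval from 0.11 to 6.60 (edgeR adjusted p = 0.528). The adjusted p was 0.297 by edgeR's likelihood ratio test and 0.221 by DESeq2, and it lay between 0.123 and 0.9998 over the alternatives. The fold change kept its direction without each library in turn, at 2.77 without Ptgs-competent replicate 2, the library at 0, and at 3.76 without Ptgs-competent replicate 3.

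Icosl (ENSMUSG00000000732, chr10:78069302-78083913, plus strand) had 76, 60 and 0 counts in Ptgs-competent TAMs and 0, 56 and 8 counts in Ptgs-deficient TAMs. The groups overlapped, and each had 1 library at 0. The means were 7.32 ± 6.44 and 2.77 ± 3.47 CPM, with a log2 fold change of -1.39 ± 2.67 (95% interval -7.33 to 4.55, edgeR adjusted p = 0.9995). It was -3.12 without Ptgs-deficient replicate 2, -0.77 without Ptgs-deficient replicate 1 and -0.82 without Ptgs-competent replicate 1.

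Tnfsf9 (ENSMUSG00000035678, chr17:57105325-57107757, plus strand), the 4-1BB ligand gene, had 76, 0 and 0 counts in Ptgs-competent TAMs and 1, 207 and 0 counts in Ptgs-deficient TAMs. Both groups thus had 1 library well above the rest, at 12.1 and 24.6 CPM, and Tnfsf9 did not enter the test. Gm11110 overlaps it on the opposite strand, with 43, 368 and 0 counts against 0, 33 and 0.

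**Figure D2:**
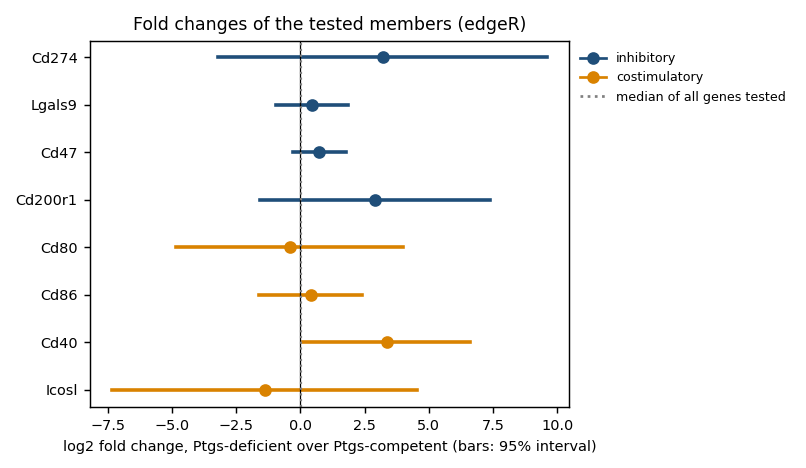
Log2 fold change (horizontal axis, Ptgs-deficient over Ptgs-competent) of the 8 tested members with its 95% interval as a bar, by class, and the median of all genes tested as a dotted line at 0.02. The interval of Cd40, from 0.11 to 6.60, is the one that does not include 0, and that of Cd274, from -3.20 to 9.61, is the widest.

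All 4 tested inhibitory members had a positive log2 fold change, with a median of 1.81, and the 4 tested costimulatory members had 2 positive and 2 negative values, with a median of -0.01. Over all genes tested, 50.7% had a positive log2 fold change and the median was 0.02. The inhibitory values were not alike, since Lgals9 and Cd47 lay under 1 and Cd274 and Cd200r1 near 3 with standard errors over 2.

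The summed level of the 5 inhibitory members was 277, 204 and 223 CPM in Ptgs-competent TAMs and 200, 506 and 605 CPM in Ptgs-deficient TAMs. Cd47 made up most of it in each library. The summed level of the 5 costimulatory members was 149, 52.7 and 34.9 CPM against 122, 159 and 219 CPM. In both classes Ptgs-competent replicate 1 lay within the Ptgs-deficient range and the other Ptgs-competent libraries lay near or below its low end.

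To set the classes against each other within a library, the mean log2 CPM of the costimulatory members was subtracted from that of the inhibitory members, over all 10 members with a prior count of 2. The difference was -0.52, 0.16 and 0.20 in Ptgs-competent TAMs and 0.51, 0.25 and 3.09 in Ptgs-deficient TAMs. All 3 Ptgs-deficient values were above the Ptgs-competent ones, but the gap between 0.20 and 0.25 was small beside the spread within each group. The group means were -0.05 ± 0.40 and 1.28 ± 1.57, which differ by 1.33, less than the SD of the Ptgs-deficient libraries. Ptgs-deficient replicate 3, the library in which Pdcd1lg2 was found and in which Tnfsf9 was at 0 and Cd80 at its lowest, carried most of it, and the difference between groups was 0.43 without that library. It was 0.54 with Cd200r1, a receptor, left out and 0.84 with Cd80 and Cd86, which also engage CTLA-4, left out. It was 1.82 without Ptgs-deficient replicate 2, and 5.29 with the median over members in place of the mean. These log2 values give members at 0, which enter at the prior count, the same weight as abundant ones. The inhibitory sums averaged 235 ± 37.8 CPM in Ptgs-competent and 437 ± 211 CPM in Ptgs-deficient TAMs. The costimulatory sums averaged 79.0 ± 61.6 and 167 ± 48.8 CPM. In proportion the costimulatory sum rose slightly more, so on summed CPM the shift toward the inhibitory members was not seen.

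**Figure D3:**
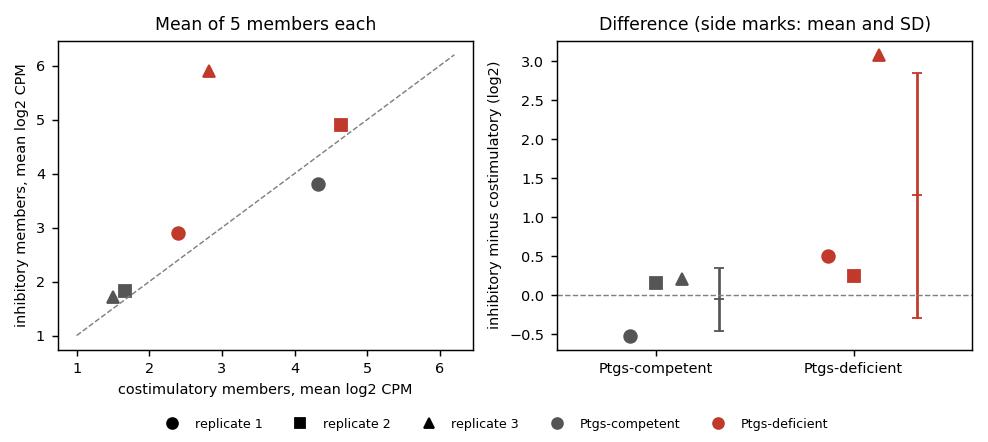
Left, the mean log2 CPM of the 5 inhibitory members (vertical) against that of the 5 costimulatory members (horizontal) in each library, with a dashed line where both are equal. Right, the difference of these means in each library, with the group mean and SD as side marks. Of the 6 libraries 5 lie within 0.52 of equality and Ptgs-deficient replicate 3 lies 3.09 above.

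At least 1 library was at 0 in 6 of the 10 members, although Cd40 and Cd200r1 had 56 and 144 counts or more wherever they were seen. Of the 60 values of 10 members in 6 libraries, 15 were 0, of which 10 were in Ptgs-competent and 5 in Ptgs-deficient libraries. Among tested members alone, 7 of 48 values were 0 (14.6%), 5 in Ptgs-competent and 2 in Ptgs-deficient libraries. Lgals9, Cd47, Cd80 and Cd86 were detected in every library. The number of members detected was 9, 6 and 5 in Ptgs-competent TAMs and 7, 9 and 9 in Ptgs-deficient TAMs. Across the tested genes, between 3.4% and 21.6% were at 0 in a library, with the highest shares in Ptgs-competent replicates 2 and 3. The part of this in the differences of Cd40, Cd200r1 and Cd274 was not tested.

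Costimulatory transcripts are also abundant in dendritic cells and B cells, and markers of these and other cell types of the tumor were measured, among them NK cells, neutrophils and cells without CD45, which the sort was set to remove. Among 12 dendritic cell genes, 3 were tested and Zbtb46, Xcr1, Itgae and Ccr7 were at 0 in every library. Their summed level was 169 to 303 CPM in the Ptgs-competent and 263 to 520 CPM in the Ptgs-deficient libraries, most of it Irf8. Batf3, a transcription factor of dendritic cell lineages that is also induced in other myeloid cells, had 0, 0 and 1 counts against 586, 634 and 424 and was called (edgeR adjusted p = 0.0324). Ccl17, a chemokine of dendritic cells and macrophages, had 0 counts in all Ptgs-competent libraries and 134, 288 and 149 in Ptgs-deficient TAMs (edgeR adjusted p = 0.246). Fscn1, the gene of the actin bundler fascin, had 0, 96 and 198 counts against 2, 0 and 0 and was not tested. Of 6 B cell genes, Cd79a, Ms4a1 and Pax5 were at 0, and the sum was 0 to 26.8 CPM against 15.0 to 106 CPM. Ighm, the immunoglobulin mu heavy chain gene, had 0 counts in all Ptgs-competent libraries and 82, 137 and 433 in Ptgs-deficient TAMs (edgeR adjusted p = 0.198), and Cd79b had 46, 163 and 0 against 0, 124 and 79. Of 10 T cell genes, 8 were at 0, and the sum was 0 to 0.328 CPM against 12.6 to 19.9 CPM, which was chiefly Cd28. Of 8 NK cell genes, Ncr1, Prf1 and Klra8 were at 0, and the sum was 2.07 to 2.37 CPM against 16.8 to 31.6 CPM. Klrk1, which encodes NKG2D and was the NK cell gene tested, had 0 counts in all Ptgs-competent libraries and 144, 36 and 78 in Ptgs-deficient TAMs (edgeR adjusted p = 0.376), and Gzma, which encodes granzyme A, had 7, 10 and 6 against 29, 171 and 1. Of 8 neutrophil genes, Ly6g was at 0, and the sum was 620 to 724 CPM against 452 to 532 CPM, with 4 of the 6 tested genes lower and 2 higher. Retnlg was among the higher ones, with 127, 365 and 75 counts against 674, 954 and 871. Of 10 melanoma cell genes, 7 were at 0, among them Pmel, Tyr, Mlana and Sox10, and the sum, most of it Sparc in Ptgs-competent TAMs, was 188 to 770 CPM against 33.2 to 62.0 CPM. Mitf, a melanocyte lineage factor that macrophages also express, went the other way, with 12, 0 and 3 counts against 58, 372 and 88. Of 9 fibroblast and endothelial genes, Cdh5 was at 0, and the sum was 260 to 442 CPM against 55.5 to 85.2 CPM. The part of these cells in the members' levels was not tested.

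Wider lists of the same pathways were read the same way. Of their 83 genes in the table, 54 were tested and none was called by edgeR's quasi-likelihood test, beside 0.216% of all genes. An unadjusted p under 0.05 was found for 9, beside 8.83% of all genes, and edgeR's likelihood ratio test and DESeq2 each called 3, beside 2.74% and 3.83%. The list medians below compare with 0.02 over all genes tested.

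Among 19 other costimulatory ligands 10 were tested, 7 with a positive and 3 with a negative log2 fold change, and the median was 1.49. Of these 3 passed an unadjusted p of 0.05, all higher in Ptgs-deficient libraries. Cd83, a surface protein of activated antigen-presenting cells that stabilizes MHC class II and CD86, had 204, 440 and 286 counts against 1862, 2335 and 1918. Its groups were far apart, at 55.5 ± 20.6 and 338 ± 59.4 CPM, and its log2 fold change was 2.61 ± 0.43. The adjusted p of edgeR's quasi-likelihood test was 0.0548, just above the threshold of 0.05, and it was 5.11e-04 by edgeR's likelihood ratio test and 3.71e-05 by DESeq2. Timd4, a phosphatidylserine receptor of tissue macrophages, had 0 counts in all Ptgs-competent libraries and 253, 346 and 80 in Ptgs-deficient TAMs. Against a floor of 3 counts per library it was at least 64.3-fold higher, with an adjusted p of 0.208 by edgeR's quasi-likelihood test and 0.0037 by its likelihood ratio test. Cd84, a homophilic receptor of the SLAM family, had 338, 121 and 3 counts against 1051, 1529 and 952, with a log2 fold change of 2.94 ± 1.05 (edgeR adjusted p = 0.376, and 0.0024 with no filter on low counts, where it was called). In this list 8 genes were at 0 in every library, among them Tnfsf4, Tnfsf13b and Il12b.

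The 24 other inhibitory ligands and partners found in the table gave 12 tested genes, 6 with a positive and 6 with a negative log2 fold change, and a median of 0.04. Nectin3, an adhesion molecule of the nectin family that stands in the table as Pvrl3, had 61, 240 and 189 counts against 0, 2 and 0. The ratio of the pooled levels was 270 in favor of the Ptgs-competent group, with a 95% counting interval from 74.2 to 2232. That interval leaves out the spread between libraries. The edgeR 95% interval of its log2 fold change was -13.8 to -2.40 (edgeR adjusted p = 0.2998, likelihood ratio test 0.0382). Fgl2, a secreted inhibitory ligand, had 354, 640 and 0 counts against 1393, 1506 and 1049, with a log2 fold change of 2.01 ± 1.25 (edgeR adjusted p = 0.869, and 0.0417 with no filter on low counts, where it was called). Pirb, an inhibitory receptor for MHC class I, had a log2 fold change of 0.59 ± 0.50, which was 0.94 without Ptgs-competent replicate 2 and 0.22 without Ptgs-competent replicate 3. Vsir, which encodes VISTA, was at 790 ± 495 and 766 ± 105 CPM, with a log2 fold change of -0.04. H2-T23 had 970 counts in Ptgs-deficient replicate 2 and 11 in replicate 3, and 0 in the other libraries.

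Of the 11 receptors and counter-ligands of the members 5 were tested, with a median log2 fold change of 0.12. Ctla4, Cd40lg and Icos, which are T cell genes, were at 0 throughout. Cd28 had 0, 2 and 0 counts against 109, 86 and 61. The ratio of the pooled counts was 116 in favor of the Ptgs-deficient group, with a 95% counting interval from 31.9 to 966. That interval leaves out the spread between libraries, and the edgeR 95% interval of its log2 fold change was 0.36 to 13.1 (edgeR adjusted p = 0.509). Of the T cell genes, Cd3e and Trac were at 0 and Cd3d had 1, 0 and 0 counts against 0, 62 and 0. Pdcd1, the PD-1 gene, had 65 counts in Ptgs-deficient replicate 3, the library with all 103 counts of Pdcd1lg2, and 0 elsewhere. Cd200, the ligand of CD200R1, had 158 counts in Ptgs-competent replicate 1, the Ptgs-competent library that held Cd200r1, and 0 elsewhere. The Ptgs-deficient libraries all held more Cd200r1 than that library and no Cd200. Thbs1, which encodes the CD47 ligand thrombospondin-1, had 904, 1155 and 709 counts against 655, 631 and 245, with a log2 fold change of -0.99 ± 0.47 (edgeR adjusted p = 0.635). Tnfrsf9, the 4-1BB gene, had 481, 409 and 0 counts against 156, 79 and 0, with a log2 fold change of -1.92 ± 2.10, which was -3.28 without Ptgs-deficient replicate 1.

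Among 19 interferon and stability regulators of PD-L1, 17 were tested, 11 with a positive and 6 with a negative log2 fold change, and the median was 0.17. Cmtm6, whose protein protects PD-L1 from lysosomal breakdown, had 221, 487 and 41 counts against 768, 1709 and 909. Its groups did not overlap, at 41.3 ± 35.9 and 177 ± 33.1 CPM, with a log2 fold change of 2.10 ± 0.71 (edgeR adjusted p = 0.360). Irf1, the interferon regulatory factor that drives the PD-L1 gene, had 328, 1093 and 276 counts against 2044, 2321 and 744, with a log2 fold change of 1.46 ± 0.56 (edgeR adjusted p = 0.412), which was 2.26 without Ptgs-competent replicate 2. Ptgs-deficient replicate 1 had 2044 counts of Irf1 and 0 of Cd274. Spop, a ubiquitin ligase adaptor that acts on PD-L1, had a log2 fold change of 0.93 ± 0.43 (edgeR adjusted p = 0.595).

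All 12 genes of CD40 and 4-1BB signaling were tested, 7 with a positive and 5 with a negative log2 fold change, and the median was 0.87. Tnfaip3, which encodes the NF-κB feedback inhibitor A20, had 101, 176 and 54 counts against 125, 1321 and 344, with a log2 fold change of 2.15 ± 0.92 (edgeR adjusted p = 0.515), which was 1.31 without Ptgs-deficient replicate 2. Bcl2a1b, an anti-apoptotic target of NF-κB, had 330, 456 and 344 counts against 699, 1249 and 1152, with a log2 fold change of 1.35 ± 0.46 (edgeR adjusted p = 0.357). It shares near-identical sequence with its paralogs, which makes its count uncertain. Bcl2l1, the BCL-XL gene, had 1002, 168 and 862 counts against 688, 134 and 55, with a log2 fold change of -1.29 ± 0.99, which was -3.15 without Ptgs-deficient replicate 1, -0.81 without Ptgs-deficient replicate 3 and -0.84 without Ptgs-competent replicate 3. Relb and Nfkb2, of the noncanonical NF-κB pathway downstream of CD40, had log2 fold changes of 0.77 ± 0.99 and 0.97 ± 1.74.

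**Figure D4:**
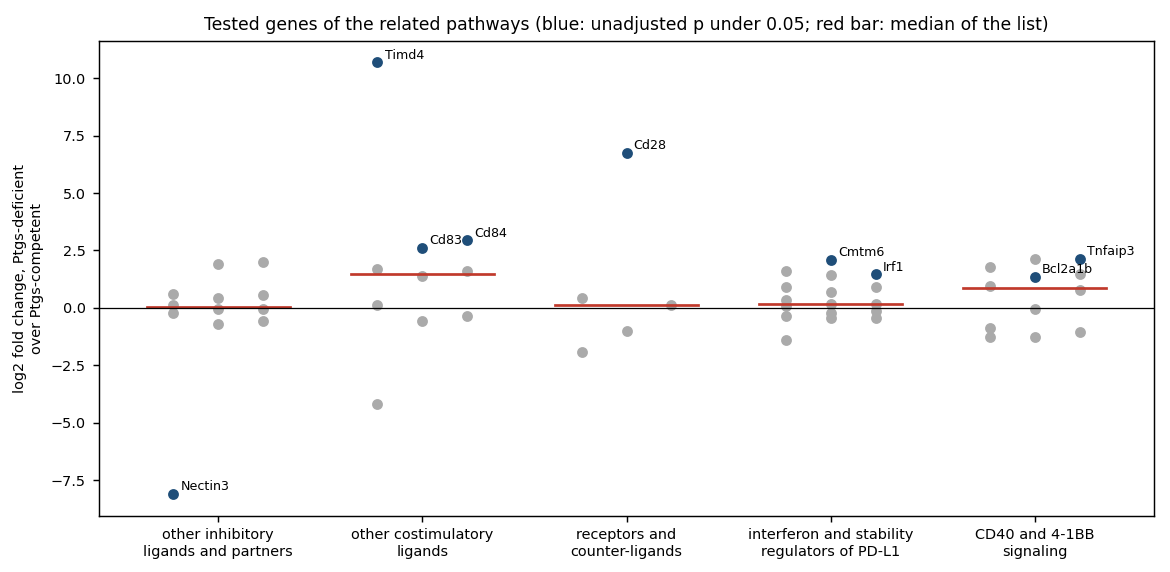
Log2 fold change (vertical axis, Ptgs-deficient over Ptgs-competent) of each tested gene in the 5 wider lists, with genes at an unadjusted edgeR p under 0.05 in blue and named, and the list median as a red bar. The named genes other than Nectin3 lie above 0, and the fitted values of Timd4, Nectin3 and Cd28, each with 0 to 2 counts per library in 1 group, depend on the prior count.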

How the data were processed

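The authors deposited a single table of raw read counts per Ensembl gene for the 6 libraries. Reads had been trimmed with BBDUK, fqtrim and cutadapt, aligned to GRCm38 with STAR and assigned to genes with featureCounts. Which versions were run, whether strand was used and how multi-mapped reads were counted are not given in the sources used here. Gene positions are whole-gene spans of GENCODE M21 on the same assembly, counted from 1, and a count cannot be placed in an exon.

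The counts were analysed with edgeR 4.0.16 (R 4.3.3). Genes passed filterByExpr (a minimum count of 10, a total of at least 15), libraries were scaled by TMM, and a two-sided quasi-likelihood test (glmQLFit, glmQLFTest) was adjusted by Benjamini-Hochberg over all 8793 genes. The study names edgeR's generalized linear model without its form, and its thresholds were kept. A standard error is the size of the log2 fold change over the root of its F statistic. Log2 CPM used a prior count of 2, and fitted fold changes used edgeR's default prior count instead. Counting intervals are exact at 95% on pooled counts and cover counting error only. Scripts were tested on simulated data.

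Alternatives were DESeq2 1.42.0, the likelihood ratio test, other scalings, no filter, limma 3.58.1 voom with sample weights, a replicate block, an FDR threshold alone and leaving out each library. All 10 members were named, with up to 3 genes of smallest p per wider list. Other genes (Sirpa, Vsir, H2-T23, Relb, Nfkb2, Pdcd1, Cd200, Cd68, Mertk, Irf8, Batf3, Ccl17, Fscn1, Klrk1, Gzma, Ighm, Cd79b, Cd3d, Sparc, Mitf, Retnlg and the genes at 0) were chosen after their values were seen. The members and lists were chosen with earlier results of these data known. Lilrb4a of the inhibitory list was not matched to a row.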

Additional observations from a re-analysis of the deposited data

How the results depend on the processing

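No member was called under any alternative, with the leave-one-out fits among them. Cd274, Cd47, Cd200r1, Cd40 and Icosl kept their direction in all 13 alternatives. Cd86, Lgals9 and Cd80 turned in 1 each, and their log2 fold changes ranged with single libraries left out from -0.050 to 1.49, from -0.044 to 0.79 and from -1.52 to 0.054. The inhibitory minus costimulatory difference between groups ranged from 0.43 to 1.82 with single libraries left out. It was 5.29 with the median over members in place of the mean, and 1.73 with voom weights. By summed CPM, in which Cd47 outweighs the other inhibitory members, the inhibitory class did not rise more in proportion. Of the genes in the wider lists, 0 were called by edgeR's quasi-likelihood test, 3 by DESeq2, 3 by the likelihood ratio test, 5 with no filter, 1 by voom and 1 with the replicate block. DESeq2 and the likelihood ratio test called Cd83, Timd4 and Nectin3, the fit with no filter called Cd83, Timd4, Cd84, Fgl2 and H2-T23, and voom and the block called Cd83. The cause was not tested. Over all genes the count called was 19, against 328 by DESeq2, 241 by the likelihood ratio test, 252 with no filter, 123 by voom and 77 with the replicate block. It was 0, 11 and 25 without Ptgs-competent replicates 1, 2 and 3, and 2, 4 and 3 without Ptgs-deficient replicates 1, 2 and 3. The median log2 fold change of all genes was 0.39 with voom and 0.26 with the replicate block. Whether the replicate numbers pair the libraries is not given in the sources used here. The deviations of same-numbered libraries correlated at -0.049, -0.022 and -0.022, which cannot decide it with 3 libraries per group. With the block, Cd40 had a log2 fold change of 4.25 (edgeR adjusted p = 0.498), and Cd200r1, Cd274 and Icosl had 8.07, 5.59 and -0.66. Depth limits the members at 0 to 3 counts, so that low expression and absence were not distinguishable.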
